A study of Mus musculus with 12 samples.

Results

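A set of 10 genes of the ATF4 arm of the integrated stress response were followed over 4 days in mouse embryonic stem cells, and Chac1, Trib3, Sesn2 and Vldlr had lower signals at day 3 than at day 0. The 10 genes are Atf4, Atf5, Ddit3, Chac1, Trib3, Sesn2, Vldlr, Asns, Psat1 and Slc7a11, out of 19057 genes that have a probe on the array. They were chosen by name and on measured values: Chac1, Trib3, Sesn2 and Vldlr had been seen to be lower at day 3, and the other genes were added as members of the same response. The values of day 3 against day 0 are therefore given for these genes as a description, with no test. Together the 10 genes have 27 probes, of which 18 were detected on at least 3 of the 12 arrays and 9 on none. Of the 10 genes, 9 passed this filter, and Slc7a11 did not.

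In the integrated stress response, kinases that sense amino acid shortage, unfolded protein in the endoplasmic reticulum, viral RNA or haem deficiency phosphorylate the translation factor eIF2, which lowers protein synthesis in general while the mRNA of ATF4 is translated more. ATF4 is a bZIP transcription factor that pairs with C/EBP family proteins and switches on genes for amino acid synthesis, amino acid uptake and tRNA charging, together with genes that feed back on the response. Because ATF4 is largely set by translation, its mRNA on an array does not report its protein.

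The cells, of the mouse embryonic stem line E14, have loxP sites around Hdac1 and Hdac2 on both alleles and carry CreER, a Cre recombinase that works only once 4-hydroxytamoxifen (OHT) is given. They were kept without feeder cells on gelatin, in serum with leukaemia inhibitory factor, and OHT was given for 16 hours to delete both deacetylase genes. Illumina bead arrays were hybridised with cRNA from total RNA of days 0, 1, 2 and 3, with 3 arrays a day, 12 in all. All 4 groups have this genotype, and the labels carry OHT in the titles of day 0 too, but the design text names day 0 as wild type, and the sources leave unclear if day 0 cells met OHT. No cells without loxP sites and none kept for the same days without OHT were analysed here, so that the deletion, the OHT and the days in culture cannot be told apart. How many clones or cultures the arrays stand for is not given in the labels. No probe used here is named Hdac1, and the probe of Hdac2 read log2 13.40 to 13.70 at day 0 and 13.12 to 13.60 at day 3 (limma adjusted p = 0.149). The sources do not say whether that probe lies in the deleted part, so it does not check the deletion.

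Values are log2 intensities after background correction and quantile normalization, and a probe counts as detected on an array at a detection p under 0.01. The arrays detected between 14509 and 16770 probes, and their upper quartile of intensity before scaling was lowest on day 3 array 2 (272.2) and highest on day 2 array 3 (382.2). A log2 intensity of one probe is not set against that of another, because probes differ in how strongly they bind. Arrays of a day are numbered as the labels number the replicates and listed in that order. Each gene is represented by its brightest detected probe unless stated. Errors of differences are standard errors of the limma fit to all 12 arrays. As these are bulk samples, fewer cells that express a gene and less RNA per cell cannot be told apart.

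ATF4 and its C/EBP partners bind a composite element whose core can be written TGATGNAA. The RefSeq promoter table (GRCm38.p6), which covers 250 bases before and 50 bases from each gene's start, held windows for 10 of the 10 genes, 13 windows in all. The core, searched on both strands, stood in a window of 5 of the 10 genes, against 4.51% of the 27025 genes with a window and 3.97% of all 32851 windows. The stretches around it are shown because this is the element through which ATF4 is known to act on its targets. Each runs 5′ to 3′ on the strand of its gene, with the core or its reverse complement in capitals.
Chac1, chr2:119351029-119351076, plus strand, core starting 193 bases upstream of the start: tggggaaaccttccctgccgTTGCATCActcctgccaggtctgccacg
Vldlr, the second of its pair of starts, chr19:27216800-27216847, plus strand, core starting 200 bases upstream: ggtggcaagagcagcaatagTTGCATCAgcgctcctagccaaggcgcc
Trib3, chr2:152344029-152344056, minus strand, core starting 14 bases downstream of the start: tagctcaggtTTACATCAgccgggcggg
Asns, chr6:7693210-7693252, minus strand, core starting 23 bases upstream: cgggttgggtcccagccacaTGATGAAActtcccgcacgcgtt
Slc7a11, chr3:50443633-50443699, minus strand, 2 cores starting 66 and 47 bases upstream: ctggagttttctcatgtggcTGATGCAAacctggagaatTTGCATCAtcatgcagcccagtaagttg
The letters of the core are not in the windows of Atf4, Atf5, Ddit3, Sesn2 or Psat1, nor at the other start of Vldlr. A match is a description of the sequence and not evidence of binding in these cells. The genes that hold the core include Chac1, with a log2 difference of -1.93 between day 3 and day 0, and also Asns, with one of -0.14.

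Chac1 was the gene of this set with the largest difference that could be measured on both days. It encodes an enzyme that breaks down glutathione inside the cell, and it is among the best-known targets of ATF4. Its log2 intensities were 12.07, 11.91 and 11.84 on the 3 arrays of day 0, and 11.88, 11.71 and 11.90 at day 1. They were 11.23, 11.17 and 11.04 at day 2 and 10.13, 10.03 and 9.88 at day 3. Days 0 and 1 overlapped, all day 2 arrays lay below all arrays of the days before, and all day 3 arrays lay below day 2. The day 3 mean was 1.93 ± 0.12 (SE, n = 3 and 3) below day 0 on the log2 scale, a 3.80-fold difference, and the step from day 2 to day 3 took up 1.13 ± 0.12 of it. At day 1 the difference from day 0 was -0.11 ± 0.12.

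Trib3, a pseudokinase that binds ATF4 and CHOP and dampens the response, had values of 10.58, 10.79 and 10.82 at day 0 and 10.54, 10.61 and 10.82 at day 1. At day 2 it had 10.35, 10.24 and 10.21, and at day 3 it had 9.70, 9.66 and 9.61. The order over days was that of Chac1, with days 0 and 1 overlapping and each later day wholly below the one before. The day 3 mean was 2.11-fold below day 0, a log2 difference of -1.07 ± 0.12. The 2 dimmer probes of Trib3 gave larger differences, of -1.57 ± 0.31 and -1.49 ± 0.20.

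Sesn2 encodes a leucine-binding protein that restrains mTORC1. Its values were 9.54, 8.95 and 9.0 at day 0, 8.84, 8.87 and 8.57 at day 1, 8.48, 8.66 and 8.48 at day 2, and 8.14, 8.16 and 8.09 at day 3. Array 1 of day 0 was the highest array of the 12. Unlike those of Chac1 and Trib3, its day 1 arrays all lay below day 0, by 0.40 ± 0.15 on the log2 scale. Days 1 and 2 overlapped, and day 3 lay wholly below day 2. Between day 0 and day 3 the difference was -1.03 ± 0.15, or 2.04-fold. A second, dimmer probe gave -1.07 ± 0.34 and was detected on all arrays but day 1 array 3 and day 3 array 2, and the remaining probe of the gene was detected on none.

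Vldlr, a receptor that takes up lipoproteins and also binds reelin, went from detected to undetected. Its brightest probe read 7.56, 7.76 and 7.82 at day 0, 7.41, 7.43 and 7.53 at day 1, and 7.24, 7.21 and 7.55 at day 2. At day 3 the readings were 5.64, 5.16 and 5.70, none of them detected. The lowest detected value on an array lay between 5.89 and 6.37, so the day 3 level has only an upper bound. Set against that bound, Vldlr was at least 3.10-fold lower at day 3 than at day 0 and at least 2.38-fold lower than at day 2. The fitted differences, -2.22 ± 0.15 and -1.83 ± 0.15, are not measured folds. The 2 other probes of Vldlr that passed the filter behaved alike, detected on all 9 arrays of days 0, 1 and 2 and on none of day 3, with bounds of 1.99-fold and 1.94-fold against day 0. The 3 remaining probes were detected on no array.

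**Figure D1:**
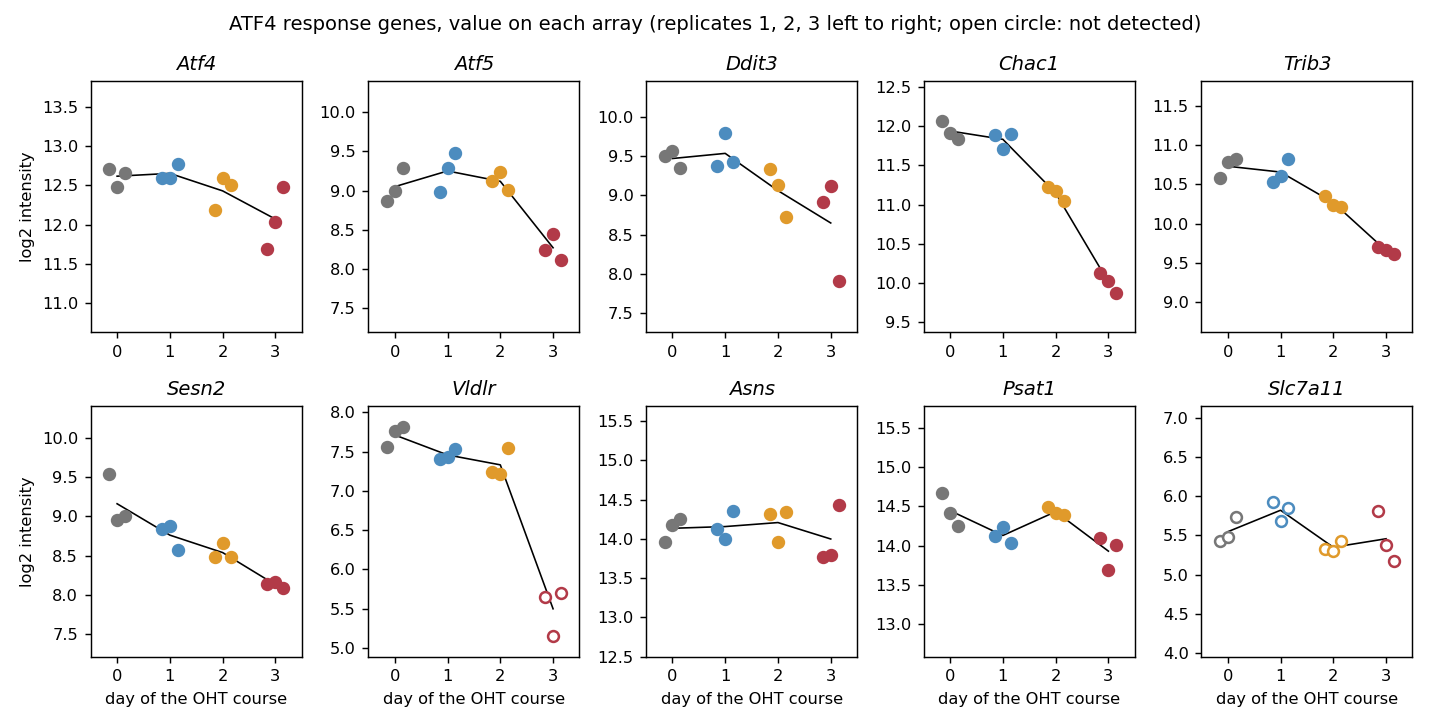
Log2 intensity of each gene on each array by day of the course, with its brightest probe, a line through the day means, and open circles where the probe was not detected. All panels span the same range of log2 units. Chac1 and Trib3 step down at days 2 and 3, Vldlr is undetected at day 3, Asns overlaps at all days, and Slc7a11 is undetected on all 12 arrays.

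By their brightest probes, the transcription factors of the set differed less. The brighter probe of Atf4 read 12.71, 12.48 and 12.65 at day 0, 12.60, 12.59 and 12.77 at day 1, 12.19, 12.59 and 12.51 at day 2, and 11.69, 12.04 and 12.48 at day 3. Day 3 array 3 lay just below the lowest array of day 0, while array 1 was the lowest of the 12. The day 3 difference from day 0 was -0.55 ± 0.18. The dimmer Atf4 probe had a tighter day 3, between 8.11 and 8.21 against 8.74 to 8.91 at day 0, and a difference of -0.68 ± 0.17.

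Atf5, a close relative of ATF4 whose translation is likewise raised by eIF2 phosphorylation, overlapped among its first 3 days. It read 8.87, 8.99 and 9.29 at day 0, 8.99, 9.29 and 9.47 at day 1, 9.12, 9.23 and 9.0 at day 2, and 8.25, 8.45 and 8.12 at day 3. Day 3 lay below all of them. The step from day 2 to day 3 was -0.85 ± 0.16, the largest such step in the set after Vldlr and Chac1, and the difference from day 0 was -0.78 ± 0.16.

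Ddit3 encodes CHOP, a bZIP factor that ATF4 induces and that promotes cell death under lasting stress. Its brighter probe read 9.51, 9.56 and 9.34 at day 0, 9.38, 9.80 and 9.42 at day 1, 9.34, 9.13 and 8.72 at day 2, and 8.92, 9.12 and 7.91 at day 3. The day 3 arrays spread over more than a log2 unit, with an SD of 0.64 against 0.11 at day 0, and array 3 alone stood far below. The difference of day 3 from day 0 was -0.82 ± 0.26. The dimmer probe gave -1.11 ± 0.23, with day 3 values of 7.18, 6.61 and 6.89, among which array 3 did not stand apart.

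By their brightest probes, the measured genes of amino acid metabolism gave the smallest differences, though Psat1 (-0.52 ± 0.14) lay close to Atf4 (-0.55 ± 0.18). Asns, which makes asparagine and is a classic amino acid response gene, read 13.97, 14.18 and 14.26 at day 0 and 14.12, 14.00 and 14.35 at day 1. It read 14.32, 13.96 and 14.34 at day 2 and 13.76, 13.80 and 14.43 at day 3. All days overlapped, day 3 array 3 was the highest of the 12, and the difference of day 3 from day 0 was -0.14 ± 0.18. Its 2 dimmer probes read lower at day 3, by 0.32 ± 0.11 and 0.51 ± 0.19 on the log2 scale, the first of them with all day 3 arrays below day 0.

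Psat1, an aminotransferase of serine synthesis, read 14.68, 14.41 and 14.25 at day 0, 14.12, 14.24 and 14.03 at day 1, 14.48, 14.42 and 14.39 at day 2, and 14.09, 13.69 and 14.01 at day 3. It did not step down day by day: day 1 lay below day 0, day 2 overlapped day 0 (difference -0.01 ± 0.14), and day 3 lay below both. The day 3 difference from day 0 was -0.52 ± 0.14. Slc7a11, the cystine and glutamate exchanger that supplies glutathione synthesis, was not detected with any of its 5 probes on any array, so no difference can be given for it. The highest value of its brightest probe was 5.93.

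**Figure D2:**
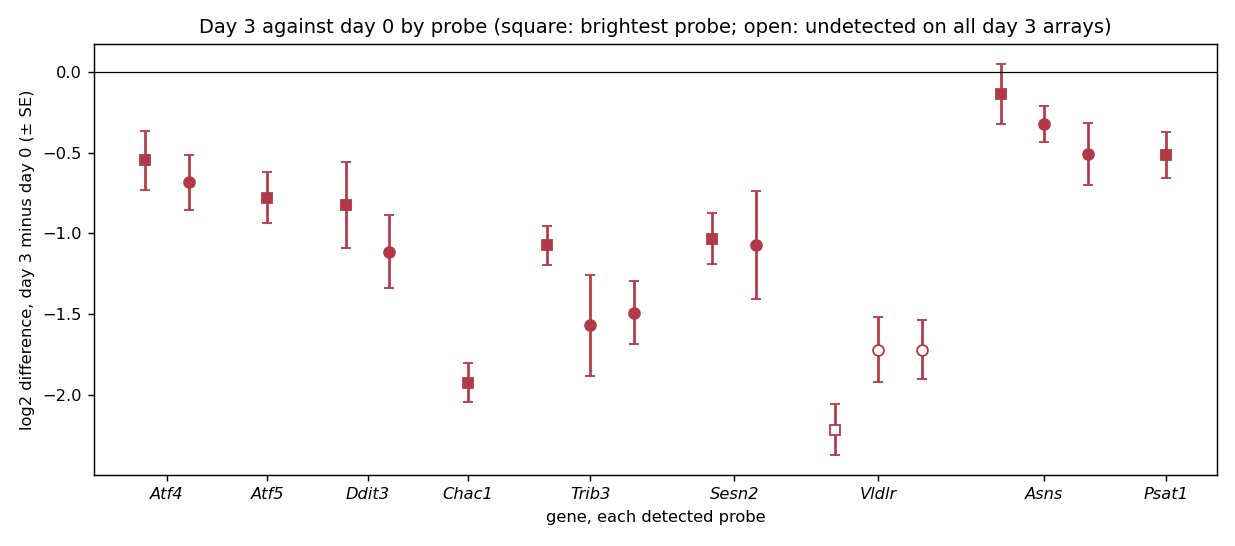
Log2 difference of day 3 minus day 0, ± SE, for each of the 18 detected probes of the 9 measured genes. Squares are the brightest probe of a gene and open symbols are probes undetected on all day 3 arrays, whose fitted difference is no measured fold. All 18 lie below 0, from -2.22 for Vldlr to -0.14 for the brightest probe of Asns.

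Over the 9 measured genes the median log2 difference of day 3 from day 0 was -0.82, against 0.01 over the 9934 genes tested. All 9 differences were below 0, and for 8 of the 9 all day 3 arrays lay below all day 0 arrays. Of all genes tested, 21% had arrays ordered this way, and 17.8% were called as falls and 21.4% as rises (limma adjusted p under 0.05). Nothing is read from these counts about the genes, since they were chosen on that difference. Day 1 against day 0 gave a median of -0.07 with 5 of 9 below 0. Sesn2, Psat1 and Vldlr had all day 1 arrays below day 0, while the dimmer detected probes of Sesn2 and Vldlr overlapped. Of all genes tested, 6.68% had arrays ordered this way, and 0.101% were called in either direction. For day 2 against day 0 the median was -0.38, and Ddit3, Chac1, Trib3, Sesn2 and Vldlr had arrays that did not overlap, all lower. For Ddit3 the margin was narrow, 9.336 on day 2 array 1 against 9.344 on day 0 array 3. The dimmer detected probes of Ddit3 and Vldlr overlapped. Of all genes 16.1% were ordered this way, and 7.60% were called as falls and 14.8% as rises. From day 2 to day 3 the median was -0.50, with 9 of 9 below 0 and 6 of 9 not overlapping, all lower. Of all genes 16.5% were ordered this way, and 6.70% fell and 5.70% rose.

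The difference between day 2 and day 1 takes its means from neither day 0 nor day 3, on whose difference Chac1, Trib3, Sesn2 and Vldlr were picked. It is the comparison in which the 9 genes were tested, although the error of the test is estimated from all 12 arrays. The genes were chosen with earlier results of these data known, so the test cannot be called independent of the choice. Chac1 fell by 0.69 ± 0.12 on the log2 scale, or 1.61-fold (limma adjusted p = 0.00347), lower on 3 of 3 arrays than all day 1 arrays. Trib3 fell by 0.39 ± 0.12, or 1.31-fold (limma adjusted p = 0.0488), also without overlap. The other 7 genes did not pass. These 2 falls among 9 genes stand beside 3.53% of all 9934 genes that fell and 7.30% that rose. The median of the 9 genes was -0.22, against 0.01 over all genes.

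The Chac1 call held in 20 of 21 alternative analyses and was lost without scaling between arrays (limma adjusted p = 0.422). The Trib3 call held without day 0 array 1 and without day 3 array 3, and it was lost when any other single array was left out, as under cyclic loess, without scaling and without the filter on dim probes. Over its alternatives the limma adjusted p of Trib3 ran from 0.0113 to 0.875. A dimmer probe of Trib3, tested among all detected probes, fell by 0.97 ± 0.20 with a limma adjusted p of 0.0113, whereas in that test the brightest probe (0.0695) and the remaining probe (0.273) did not pass.

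Among the genes that did not pass between day 1 and day 2, Ddit3 differed by -0.47 ± 0.26 (limma adjusted p = 0.288) and Atf4 by -0.22 ± 0.18 (limma adjusted p = 0.477), both with all day 2 arrays below day 1. For Atf4 the margin was narrow, 12.588 on day 2 array 2 against 12.592 on day 1 array 2, and its dimmer probe overlapped. Sesn2 differed by -0.22 ± 0.15 (limma adjusted p = 0.401), Atf5 by -0.13 ± 0.16 (0.644) and Vldlr by -0.13 ± 0.15 (0.655). Asns differed by 0.05 ± 0.18 (limma adjusted p = 0.899). Psat1 had all day 2 arrays above day 1, with a difference of 0.30 ± 0.14 that did not pass (limma adjusted p = 0.191). A missed threshold does not show that these genes were level.

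**Figure D3:**
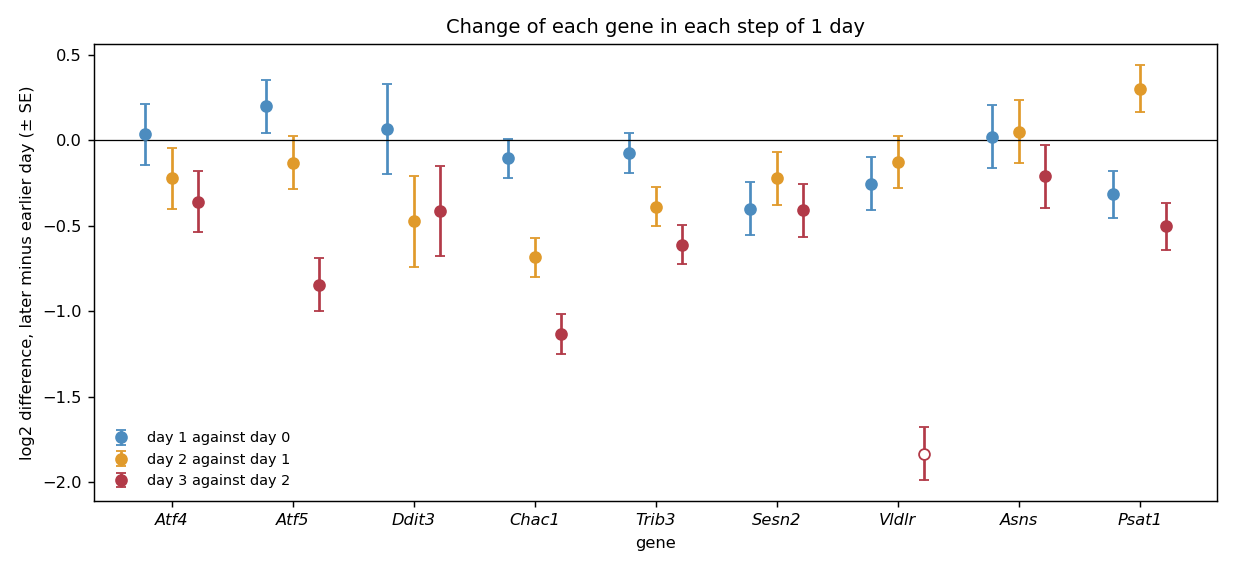
Log2 difference of each gene in each step of 1 day, later minus earlier, ± SE of the limma fit, n = 3 arrays a day. The open circle is Vldlr from day 2 to day 3, undetected at day 3. The step from day 1 to day 2, the one that was tested, is -0.69 for Chac1 and -0.39 for Trib3, and the steps into day 3 lie below 0 for all 9 genes.

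To set these genes in their pathway, 111 further genes that passed the filter, from 9 lists, were tested in the same fit. Besides genes of the response, the lists hold ATF6 and XBP1 targets, endoplasmic reticulum stress sensors, genes of glutathione metabolism and paralogs of the 10 genes. The counts over the 111 pool all of these lists. At day 3 against day 0, 30 of the 111 fell (27.0%) and 17 rose (15.3%), beside 17.8% and 21.4% of all genes. Their median log2 difference was -0.13. At day 2 against day 0, 20 fell (18%) and 7 rose (6.31%), beside 7.60% and 14.8% of all genes. From day 1 to day 2, 11 fell (9.91%) and 4 rose (3.60%), beside 3.53% and 7.30% of all genes. With scaling to the 75th percentile these 2 splits were 32 falls and 6 rises, and 16 falls and 2 rises. Over all 9934 genes that scaling gave 1357 falls and 1185 rises, and 613 falls and 580 rises. From day 2 to day 3, 9 fell (8.11%) and 4 rose (3.60%), beside 6.70% and 5.70% of all genes. Under cyclic loess 8 fell and 6 rose, beside 581 falls and 601 rises among all 9934 genes. At day 1 limma called 0 of the 111, beside 10 of all 9934 genes. At an unadjusted p under 0.05 there were 15 of the 111, beside 994 of the 9934. Without day 2 array 3 the pathway count for day 2 against day 0 was 17 in all, beside 1630 of all genes (2228 in the main fit). For day 1 to day 2 the pathway count was 7, 5 and 7 without day 1 array 1, 2 and 3, and 6 and 3 without day 2 array 2 and 3. Over all genes the same runs gave 612, 512, 642, 598 and 548 (1076 in the main fit). For day 2 to day 3 the pathway count was 8, 6 and 5 without day 2 array 1, 2 and 3, and 8 and 7 without day 3 array 1 and 2. Over all genes these runs gave 836, 716, 577, 785 and 642 (1232 in the main fit). Without scaling between arrays 12 fell and 1 rose at day 3, beside 519 falls and 723 rises among all 9934 genes. Of the genes named in the following, Cebpg, Oat, Asl, Slc7a6, Farsa, Sqstm1, Tnfrsf10b, Klhl24, Creld2, Pdia3, Slc7a7, Trib2, Gss, Eif2ak2 and Eif2b2 were not called at day 3 under that setting.

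**Figure D4:**
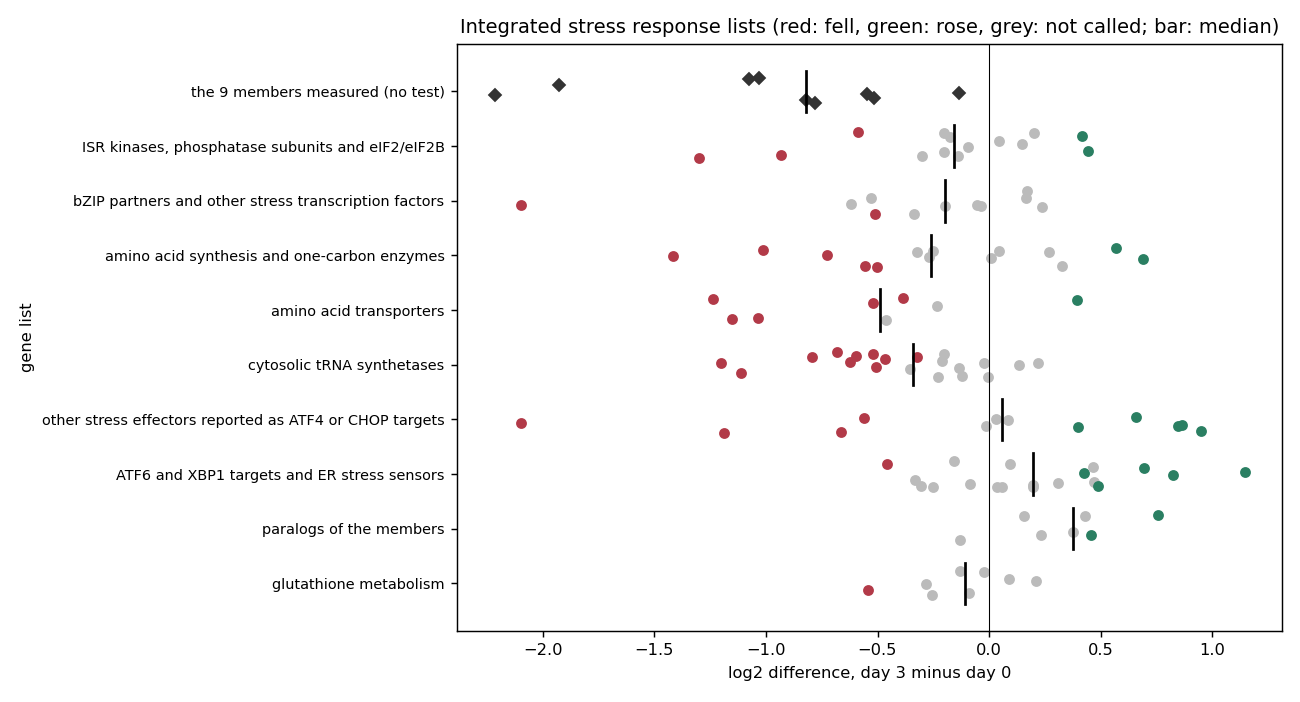
Log2 difference of day 3 minus day 0 for the 9 measured genes, shown as diamonds and not tested, and for the 111 pathway genes by list. Red circles fell, green circles rose, grey circles were not called, bars are medians, and a gene in more than 1 list is drawn in each. The transporters have 5 falls and 1 rise among 8 genes, the tRNA synthetases 10 falls among 20, and the ATF6 and XBP1 list 5 rises and 1 fall among 19, beside 17.8% falls and 21.4% rises among all genes.

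Nupr1, a small stress-induced chromatin protein that belongs to the transcription factor list and to the list of other effectors, had the largest fall of the 111 genes. Its mean was 11.94 ± 0.28 (SD, n = 3) at day 0, 12.17 ± 0.17 at day 1, 11.15 ± 0.21 at day 2 and 9.85 ± 0.51 at day 3. It fell 4.27-fold by day 3 (log2 -2.10 ± 0.23 SE, limma adjusted p = 2.12e-05) and 2.02-fold from day 1 to day 2 (limma adjusted p = 0.0144). The fall from day 1 to day 2 was lost without day 1 array 2, without day 2 array 3 and without scaling. Its promoter window holds the core once, shown as that of the pathway gene with the largest fall. Of all genes with a window, 4.51% hold the core. The core was not counted over the other pathway genes, so this match does not tie it to their falls.
Nupr1, chr7:126625553-126625600, minus strand, core starting 110 bases upstream: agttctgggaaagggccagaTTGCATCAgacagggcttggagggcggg
Of the 11 transcription factors tested, Cebpg, a C/EBP partner of ATF4, was the other that fell at day 3 (log2 -0.51 ± 0.12, limma adjusted p = 0.00511), and it was not called when the detected probes of a gene were averaged. Of all genes tested, 17.8% fell at day 3. With the replicate number as a block, or without day 3 array 3, 4 of the 11 fell. Atf3, another stress-induced bZIP factor, was not called, with 0.24 at day 3 (limma adjusted p = 0.344).

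The list for eIF2, its exchange factor eIF2B, its kinases and its phosphatase subunits also holds Impact and Nck1. Of its 14 genes tested, 3 fell and 2 rose at day 3. Eif2ak4, Eif2s1 and Gcn1 of this list were not among those tested. Of all genes tested, 17.8% fell and 21.4% rose. Ppp1r15b, the constitutive subunit that directs a phosphatase to eIF2, fell 2.46-fold (log2 -1.30 ± 0.18, limma adjusted p = 0.000144). Eif2s3x, the X-linked gamma subunit of eIF2, fell by 0.93 ± 0.15 on the log2 scale (limma adjusted p = 0.000478). Ppp1r15a, the inducible phosphatase subunit and an ATF4 target, differed by -0.20 and was not called (limma adjusted p = 0.302). Eif2ak3, the kinase PERK, was at 0.04 (limma adjusted p = 0.877). The rises, of Eif2ak2 (0.44 ± 0.13) and Eif2b2 (0.42 ± 0.14), were both lost with 75th percentile scaling and without day 0 array 2 or day 3 array 1. The Eif2b2 call was also lost without day 0 array 1, day 0 array 3 or day 3 array 2. From day 1 to day 2, the eIF2B subunits Eif2b1 and Eif2b4 fell, by 0.53 ± 0.16 (limma adjusted p = 0.0473) and 0.43 ± 0.12 (0.0417) on the log2 scale, and both calls were lost without any single array of day 1, without day 2 array 2 or 3, and without day 0 array 2. The Eif2b1 call was also lost without day 0 array 1 or day 3 array 2, and the Eif2b4 call without day 2 array 1. Both were lost without scaling and without the filter on dim probes, and that of Eif2b1 with cyclic loess and with the mean of the detected probes.

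The enzymes of amino acid synthesis and one-carbon metabolism gave 5 falls and 2 rises among 14 at day 3, beside 17.8% and 21.4% of all genes. Cth, which makes cysteine from cystathionine, fell 2.67-fold by day 3 (log2 -1.42 ± 0.20, limma adjusted p = 0.000151). Gpt2, a mitochondrial alanine aminotransferase, fell 2.02-fold (log2 -1.01 ± 0.11, limma adjusted p = 2.2e-05), and Shmt2, the mitochondrial serine hydroxymethyltransferase, 1.65-fold (-0.72 ± 0.15, limma adjusted p = 0.00227). From day 1 to day 2, Gpt2 fell by 0.42 ± 0.11 on the log2 scale (limma adjusted p = 0.0289) and Shmt2 by 0.60 ± 0.15 (0.0255). The Gpt2 call was lost without day 1 array 1 or 3 or any day 2 array. The Shmt2 call was lost without day 1 array 1 or 2 or day 2 array 2 or 3. Both were also lost without scaling between arrays. Phgdh, which starts the serine pathway that Psat1 continues, differed by -0.25 at day 3 and was not called (limma adjusted p = 0.265). Oat, ornithine aminotransferase, rose by 0.69 ± 0.12 (limma adjusted p = 0.000503). The other rise, of Asl, argininosuccinate lyase, had overlapping arrays (0.57 ± 0.20, limma adjusted p = 0.0408) and was lost without day 0 array 1 or 3, day 1 array 1 or 3, day 2 array 2 or 3 or day 3 array 1. The Asl call was also lost without the filter on dim probes.

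Of 8 amino acid transporters, 5 fell and 1 rose at day 3, beside 17.8% and 21.4% of all genes. Slc7a3, a cationic amino acid transporter, stepped down from 13.40 ± 0.06 (SD, n = 3) at day 0 to 13.16 ± 0.10, 12.56 ± 0.07 and 12.25 ± 0.23 on the following days. The fall by day 3 was 2.22-fold (log2 -1.15 ± 0.13 SE, limma adjusted p = 2.23e-05), and that from day 1 to day 2 was 1.51-fold (limma adjusted p = 0.0109), a call lost without scaling alone among 21 alternatives. Slc38a1, a glutamine transporter, fell by 1.24 ± 0.18 on the log2 scale at day 3 (limma adjusted p = 0.000189). Slc3a2, the partner chain of the Slc7a11 exchanger, differed by -0.46 and was not called (limma adjusted p = 0.0623). Slc7a6, an exchanger of basic and neutral amino acids, rose by 0.39 ± 0.11 (limma adjusted p = 0.0132).

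The cytosolic tRNA synthetases, together with the tRNA exporter Xpot of the same list, gave 10 falls among 20 at day 3, beside 17.8% of all genes. The other 10 were not called. The largest falls were those of Cars, for cysteine, at -1.20 ± 0.22 (limma adjusted p = 0.00084) and Eprs, for glutamate and proline, at -1.11 ± 0.23 (0.00243). Farsa, a subunit of the phenylalanine enzyme, fell by 0.79 ± 0.17 on the log2 scale by day 3 (limma adjusted p = 0.00258). From day 1 to day 2 Farsa fell by 0.69 ± 0.17 (limma adjusted p = 0.0221). This second call was lost without scaling between arrays, and without day 1 array 2 or 3 or any day 2 array. The list had 2 falls without scaling between arrays and 7 to 11 when single arrays were left out.

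Of 12 other effectors reported as targets of ATF4 or CHOP, 4 fell and 5 rose at day 3, beside 17.8% and 21.4% of all genes. Besides Nupr1, Stc2, a secreted stanniocalcin, fell 2.28-fold (log2 -1.19 ± 0.14, limma adjusted p = 3.46e-05). Stc2 also fell by 0.59 ± 0.14 from day 1 to day 2 (limma adjusted p = 0.0178). That call was lost without scaling between arrays, and without day 1 array 1 or 2 or day 2 array 2 or 3. Sqstm1, the autophagy receptor p62, rose by 0.95 ± 0.21 (limma adjusted p = 0.00347). Tnfrsf10b, a death receptor, had 0.87 ± 0.32 (limma adjusted p = 0.0472), a call lost without any day 0 array, day 1 array 3, day 2 array 1 or 2 or day 3 array 2 or 3. The Tnfrsf10b call was also lost without the filter on dim probes and with the mean of the detected probes of a gene. Klhl24, a ubiquitin ligase adaptor, and Ddit4, an mTORC1 inhibitor, rose from day 1 to day 2 by 0.62 ± 0.10 (limma adjusted p = 0.00302) and 0.53 ± 0.13 (0.0213), while Chac1 and Trib3 fell. The Ddit4 call at that step was lost without any single array of days 1 and 2 and with 75th percentile scaling. Without scaling between arrays the calls of both Klhl24 and Ddit4 at that step were lost. Between day 0 and day 3 Ddit4 was not called, with a difference of -0.01 ± 0.13 (limma adjusted p = 0.947).

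ATF6 and XBP1 act in the other branches of the endoplasmic reticulum stress response. The list of their targets and of stress sensors, which includes Xbp1, Atf6b and Ern1, gave 5 rises and 1 fall among 19 at day 3. Of all genes tested, 21.4% rose and 17.8% fell. Pdia6, a protein disulfide isomerase, rose 2.21-fold (log2 1.15 ± 0.17, limma adjusted p = 0.000211), and Creld2, a secreted chaperone-like protein, rose 1.77-fold (0.83 ± 0.14, limma adjusted p = 0.00071). The fall was that of Pdia3 (-0.46 ± 0.13, limma adjusted p = 0.0169), lost without day 0 array 1 or day 3 array 2. Hspa5, the main chaperone of the compartment, differed by -0.30 (limma adjusted p = 0.211) and Xbp1 by 0.06 (0.777), and neither was called. Edem1, which marks misfolded glycoproteins for removal, was called lower at day 2 than at day 1 (limma adjusted p = 0.0108), but 1 of the 3 day 2 arrays detected it, so no fold is given. The call was lost without day 2 array 3, without scaling, without background correction and with the deposited normalized values.

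Of 7 paralogs of the 10 genes tested, 2 rose at day 3 and the other 5 were not called. Of all genes tested, 21.4% rose and 17.8% fell. Slc7a7, a light chain related to Slc7a11, rose by 0.76 ± 0.18 (limma adjusted p = 0.00493). Trib2, a relative of Trib3, had 0.46 ± 0.17 (limma adjusted p = 0.0492), a call lost with the replicate number as a block (0.0563), with any day 0 array left out, and without day 1 array 2, day 2 array 2 or 3 or day 3 array 1 or 3. The Trib2 call was also lost without background correction, with the deposited normalized values and without the filter on dim probes. Lrp8, the receptor closest to Vldlr, rose from day 1 to day 2 by 0.82 ± 0.15, or 1.76-fold (limma adjusted p = 0.00439), in all 21 alternatives as well. Its day 3 difference of 0.37 ± 0.15 was not called (limma adjusted p = 0.0577) and was called with the replicate block (0.0296), with cyclic loess, with 75th percentile scaling and without day 1 array 1 or 2. Sesn3 passed from day 1 to day 2 (limma adjusted p = 0.0144), but it was detected on none of the day 1 arrays and on 1 of the day 2 arrays, so no fold is given. That call was lost without day 1 array 2 or 3 or day 2 array 3. It was also lost with 75th percentile scaling, without scaling, without background correction and with the deposited normalized values. Sesn1 differed by 0.23 (limma adjusted p = 0.125) and Chac2 by -0.13 (0.651) at day 3. Among 8 genes of glutathione metabolism, the substrate pathway of Chac1, glutathione synthetase Gss fell by 0.54 ± 0.14 at day 3 (limma adjusted p = 0.0088), and 2 genes fell with the replicate block. The fall of Gss from day 1 to day 2 (log2 -0.47 ± 0.14, limma adjusted p = 0.0498) was lost when any array of days 0, 1 or 2, or day 3 array 1, was left out. It was also lost with cyclic loess, without scaling, without background correction, with the deposited normalized values and without the filter on dim probes.

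The mean course of Chac1, Trib3, Sesn2 and Vldlr, each centred on its own day 0, ran -0.21, -0.56 and -1.56 on the log2 scale at days 1, 2 and 3. The 5 other genes closest to it, by the mean absolute difference over the 12 arrays, were Scarb2, Catsper2, Myo1f, Mettl4 and 1700030K09Rik, with mean differences of 0.11 to 0.14. Scarb2, a lysosomal membrane receptor, was the closest and lay 1.73 ± 0.13 below day 0 at day 3. These genes were picked for their likeness, so their differences are a description.

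Markers of the cell types that such cultures could hold were read on the same arrays. The 10 stem cell markers, Pou5f1, Sox2 and Nanog among them, were detected on all 12 arrays. Their summed linear intensity was 144100 to 147700 at day 0 and 119500 to 123200 at day 3, where 5 of the 10 fell. Of all genes tested, 17.8% fell and 21.4% rose at day 3. Of 10 fibroblast markers, Col1a1, Col1a2, Col3a1, Dcn, Lum, Pdgfra, Pdgfrb and Postn did not pass the filter. Of the other 2, Thy1 and Vim, 1 was called as a rise at day 3. Their sum was 1954 to 2631 at day 0 and 4020 to 5984 at day 3. Of 10 trophectoderm markers, 7 passed, and 5 of these rose and 1 fell at day 3, with a sum of 10270 to 11600 at day 0 and 15420 to 17000 at day 3, while Eomes, Elf5 and Hand1 did not pass. Of 10 endoderm markers, 3 passed, of which 2 rose and 1 fell at day 3, with a sum of 430.8 to 477.2 at day 0 and 1846 to 2215 at day 3, and Gata4, Gata6, Sox17, Foxa2, Pdgfra, Afp and Ttr did not. Of 8 neuroectoderm markers, 2 passed, Nes and Map2, of which 1 was called as a rise at day 3. Their sum was 506.8 to 541.7 at day 0 and 676.6 to 794.8 at day 3, and Sox1 and Pax6 did not pass. Of 10 mesoderm markers, 2 passed, Actc1 and Myl7, and both were called as rises at day 3. Their sum was 145.9 to 165.3 at day 0 and 421.6 to 507.2 at day 3, and T and Mixl1 did not pass. The part of these markers in the lower values of the stress response genes was not tested.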

How the data were processed

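The deposited non-normalized table holds, for 45281 probes and 12 arrays, an intensity on a linear scale and a detection p-value, as the authors exported them from GenomeStudio per the submitters' processing notes (version not given in the sources used here). A second deposited table holds normalized intensity values, whose method is not stated, and served as an alternative. All per-sample columns were used, leaving 0 out.

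Background, estimated from the detection p-values, was removed with neqc (offset 16, limma 3.58.1, R 4.3.3), which also quantile normalizes, and values were taken to log2. Probes detected at p under 0.01 on at least 3 arrays were kept (17337). The series' probe annotation named 34885 probes with 1 gene, 18 with several and 10378 with none, and 34807 matched RefSeq. The brightest detected probe stood for each of 9934 genes. One linear model over the 12 arrays (lmFit, eBayes) held the mean of each day, and two-sided p-values were adjusted by Benjamini-Hochberg over 9934 genes and called under 0.05. The fit was tested on simulated data. Where a probe was undetected on a whole day, the fold is a bound against the lowest detected value of each array.

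The genes and lists were chosen with earlier results of these data known. Of each list, the 2 largest called rises and falls at day 3 against day 0 and at day 2 against day 1 are named, and other genes were named after their values were seen. The alternatives were 3 other scalings, no background correction, the deposited values, 2 other filters, the mean over probes, a replicate block and each array left out in turn, and after seeing the data each further probe. Same-numbered arrays deviated together in every pair for day 1 against day 0 (r of 0.191, 0.231 and 0.433) and day 3 against day 0 (0.266, 0.277 and 0.405). The main fit held no replicate term, so its p-values take no account of this pairing. The replicate block, which does, was run as an alternative only. Nothing says that replicates came from separate cultures, so p-values measure the spread between these samples. The number of arrays limits the precision. Figures were drawn with matplotlib 3.10.9.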

Additional observations from a re-analysis of the deposited data

How the results depend on the processing

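Of the 2 calls among the 9 measured genes from day 1 to day 2, cyclic loess kept 1, no filter on dim probes 1 and no scaling between arrays 0, and leaving out single arrays kept 1 to 2. With the replicate block, not a pairing for this step (r of 0.0971, -0.0164 and 0.253), the count was 2. Without scaling, which shifted the median of all genes by 0.29 from day 1 to day 2 and by -0.36 from day 2 to day 3, pathway calls went from 27 to 3 for day 2 against day 0, 15 to 1 for day 2 against day 1, 47 to 13 for day 3 against day 0 and 13 to 3 for day 3 against day 2. In the same order, calls over all genes went from 2228 to 1023, 1076 to 371, 3889 to 1242 and 1232 to 187. With single arrays left out the pathway calls ran from 17 to 29, 3 to 18, 37 to 47 and 5 to 18. Calls over all genes ran from 1575 to 2524, 512 to 1300, 3245 to 4019 and 577 to 1797. The lowest pathway counts, apart from that for day 3 against day 0, came without day 2 replicate 3. With the replicate block, pathway calls for day 3 against day 2 went to 23 (r of 0.351, 0.0871 and 0.444), and those for day 3 against day 0 to 53. Over all genes the block gave 1973 and 4521 calls, so the rise was not confined to the pathway genes. With 75th percentile scaling, 46.6% of all calls at day 2 against day 0 were rises, against 66.1%, and 48.6% against 67.4% from day 1 to day 2. Directions of genes that were not called turned as follows from day 1 to day 2: Asns to -0.26 with 75th percentile scaling, -0.072 with the mean of its probes, -0.13 and -0.14 with its other probes, and -0.029 to 0.17 with single arrays left out; Psat1 to -0.018 with 75th percentile scaling; Atf5 to 0.19, Sesn2 to 0.11 and Vldlr to 0.25 without scaling; and Vldlr to 0.061 with its probe ILMN_2515601. Ddit4 at day 3 against day 0 turned to 0.014 with cyclic loess and ran from -0.14 to 0.059 with single arrays left out. Without background correction the fitted Vldlr difference at day 3 was -0.87, near the background as the probe is undetected there. The cause of the other changes was not tested. Levels at or below the detection limit, as for Vldlr at day 3, Slc7a11, Edem1 and Sesn3, have no measured fold.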
